A study of Mus musculus with 6 samples.

Results

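The TRIM proteins (tripartite motif) form a large family of ubiquitin ligases, built from a RING domain, one or more B-boxes and a coiled coil, with a variable C-terminal part that picks the target. The RING recruits a ubiquitin-conjugating enzyme, and the ubiquitin chain that results either marks the target for the proteasome or assembles a signalling complex. In macrophages the family is best known for antiviral defence. Some members restrict viral capsids, others switch the RNA sensors RIG-I and MDA5 or the DNA sensor pathway of cGAS and STING, and many are themselves induced by interferon. Of 68 genes in the deposited table named Trim with a number and at most 1 letter from a to d, 38 had at least 0.5 FPKM (fragments scaled to transcript length and to the depth of the library) in at least 3 of 6 libraries, and these 38 are the TRIM members described here. The table held 55401 genes, of which 12084 passed the same filter.

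Macrophages were grown from mouse bone marrow (BMDM) for 7 days in medium with 10% L929-conditioned medium. The L-OHP+FUC group (3 samples) received fucoidan, a sulfated polysaccharide of brown algae, ahead of the drug (250 µg/ml, 12 h), and then 5 µM L-OHP (the usual abbreviation of oxaliplatin, a platinum chemotherapy drug) for 12 h. The L-OHP group (3 samples) received 5 µM L-OHP for 12 h without fucoidan, so both groups carry the drug and each difference is that of fucoidan pretreatment in drug-exposed cells. The sources used here name no strain, sex or age of the mice. Whether each replicate had its own culture or mouse is not labelled, and the p-values cover the spread among the deposited samples alone, which can be technical.

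Steps between low FPKM values implied 15.9 to 18.8 M (mega) fragments per library. Summed FPKM of 9 macrophage markers (among them Adgre1, Csf1r, Cd68 and Lyz2) was 13590 to 14570 in L-OHP+FUC libraries and 12620 to 17990 in L-OHP libraries, and 1 of the 9 rose and 2 fell. Lyz2 made up most of each sum, at 10590 to 11660 FPKM with L-OHP+FUC and 10000 to 15180 FPKM with L-OHP. Neutrophil markers summed to 5.45 to 6.35 FPKM with L-OHP+FUC and 3.79 to 4.26 FPKM with L-OHP, with Ly6g and Retnlg listed at 0 in all 6 libraries. Of the 2 neutrophil markers tested, 1 rose. Fibroblast or stromal markers summed to 6.83 to 6.99 FPKM with L-OHP+FUC and 4.67 to 10.7 FPKM with L-OHP, and the lists for dendritic, T and NK, B, erythroid, and mast cells or basophils at 0 to 0.999 FPKM. The part of the neutrophil and fibroblast levels in the results was not tested. Fewer cells that express a gene and less RNA of it per cell cannot be told apart in these bulk samples.

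Macrophages given fucoidan before the drug carried less RNA of a block of neighbouring Trim genes on chromosome 7 (Trim5, Trim12a, Trim12c, Trim34a and the Trim30 genes), of Trim56 and Trim25, which act on the STING and RIG-I pathways, and of Trim39 and Trim11. They carried more RNA of Trim13, a ligase anchored in the membrane of the endoplasmic reticulum, and of Trim35, one of the most abundant members. The changes of Trim12c, Trim25, Trim30a, Trim30b and Trim30c did not hold without some single libraries, while those of the other genes named here did. With GC content and transcript length corrected, Trim25 alone of these less firm genes passed. By limma on log2(FPKM + 1), with Benjamini-Hochberg adjustment over all tested genes and a threshold of 0.05, 4 of the 38 members rose, 16 fell and 18 did not pass. Among all tested genes, 7.67% were called higher and 19.3% lower, 27.0% in all, against 52.6% of the TRIM members. The median log2 fold change was -0.31 over the TRIM members and -0.10 over all tested genes. In 4 members every L-OHP+FUC library was above every L-OHP library and in 22 members every one was below, against 16.1% and 30.9% of all tested genes (47.0% in all). The 16 and the 22 both include Trim30b, which could pass the filter only as a gene lower with fucoidan.

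**Figure D1:**
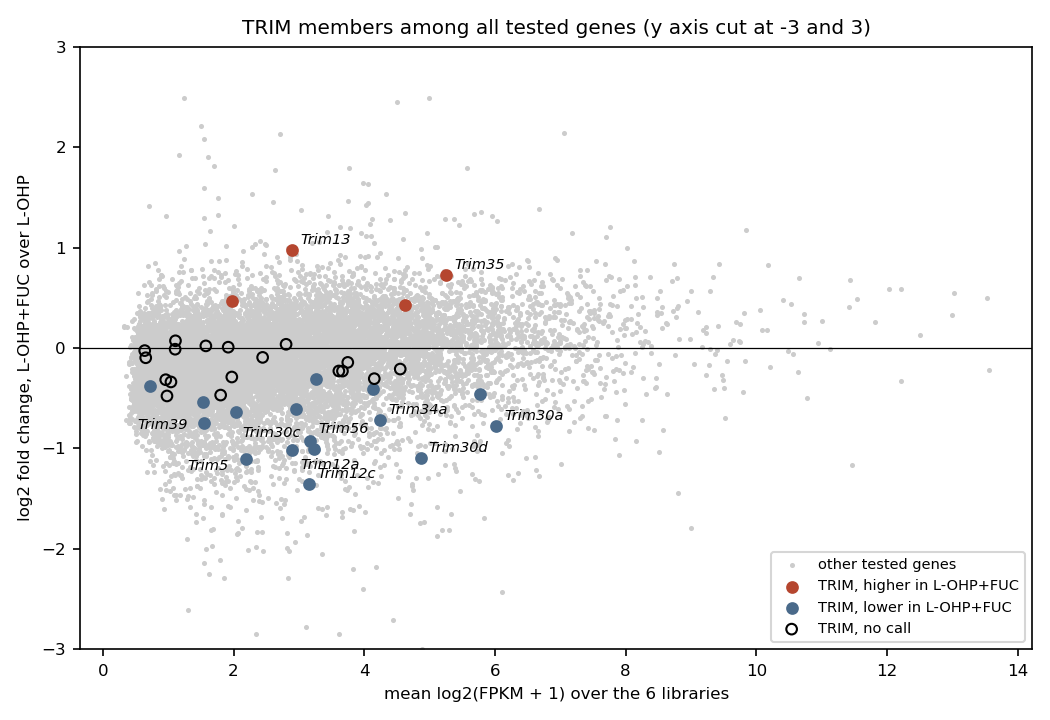
Log2 fold change (L-OHP+FUC over L-OHP) against mean log2(FPKM + 1) for the tested genes, with the 38 TRIM members as large points. The 16 lower members lie between -0.31 and -1.36, and the 4 higher ones between 0.43 and 0.98.

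The members span a wide range of level, from a mean over the 6 libraries of 0.560 FPKM for Trim45 to 66.5 FPKM for Trim30a. With L-OHP+FUC, the 3 most abundant were Trim30a (49.2 ± 11.2 FPKM), Trim35 (47.9 ± 1.05 FPKM) and Trim25 (45.7 ± 1.56 FPKM; SD, n = 3), which differed by less than the SD of Trim30a. With L-OHP the order was Trim30a (83.9 ± 8.59 FPKM), Trim25 (63.0 ± 4.09 FPKM) and Trim30d (42.0 ± 7.71 FPKM), and Trim35 came next (28.5 ± 0.360 FPKM; SD, n = 3). Within a library, the ratio of Trim35 to Trim25 in FPKM was 1.11, 1.02 and 1.02 with L-OHP+FUC and 0.439, 0.437 and 0.484 with L-OHP. Summed over the 38 members, the level was 355, 349 and 394 FPKM in L-OHP+FUC libraries and 499, 510 and 435 FPKM in L-OHP libraries, without overlap. Of these members, 34 reached 0.5 FPKM in all 6 libraries. Trim6, Trim34b and Trim45 reached it in 2 L-OHP+FUC and 3 L-OHP libraries. Trim30b did so in the 3 L-OHP libraries only, so that it could pass the filter only as a gene lower with fucoidan.

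**Figure D2:**
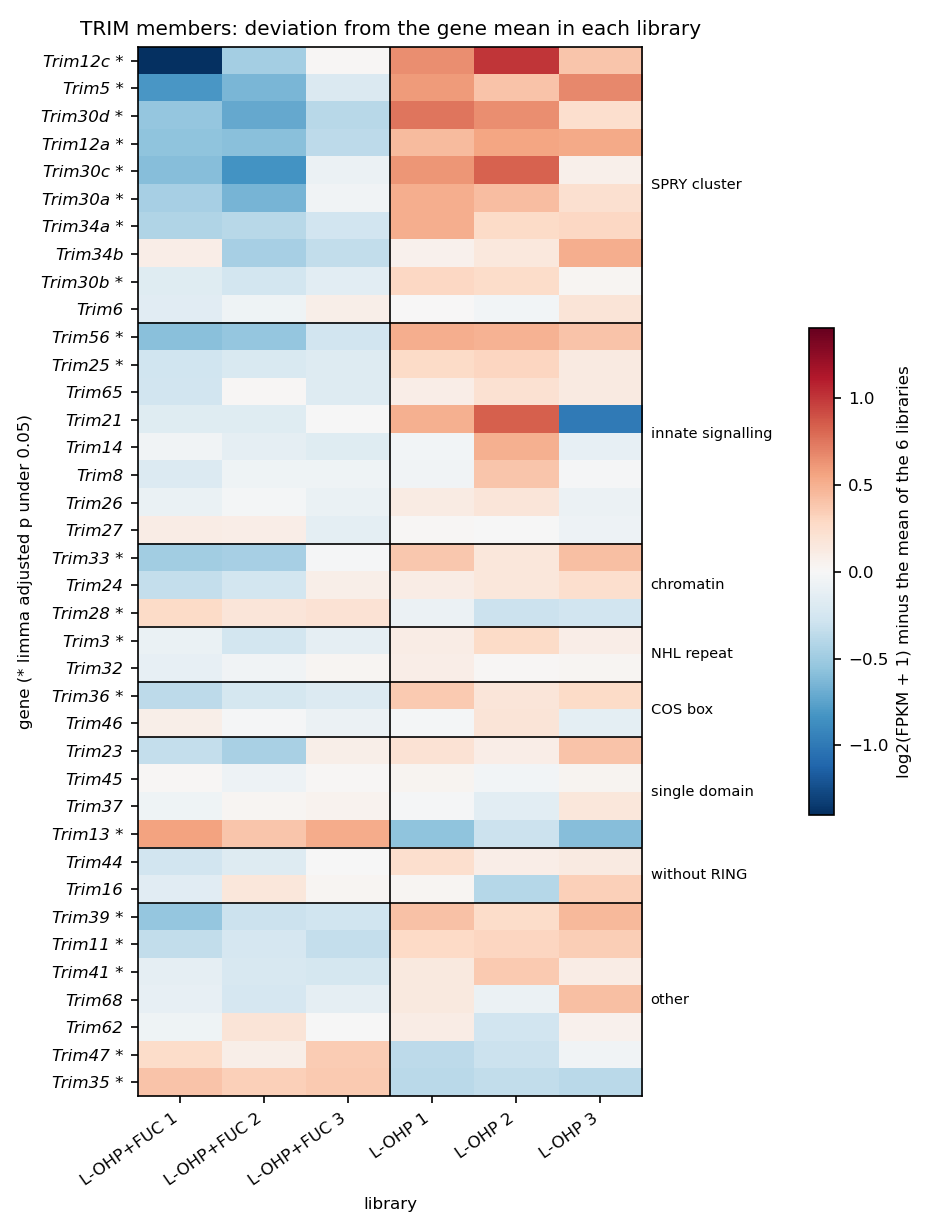
Deviation of each TRIM member in each library from its mean over the 6 libraries, in log2(FPKM + 1). Rows are grouped by structure and role and columns by treatment. The mean deviation of the 10 SPRY cluster genes was -0.52, -0.51 and -0.17 in L-OHP+FUC replicates 1 to 3 and 0.44, 0.45 and 0.31 in L-OHP replicates 1 to 3.

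The first group holds the mouse relatives of TRIM5, the primate factor that binds incoming retroviral capsids through its C-terminal SPRY domain. All 10 of them lie side by side on chromosome 7, from 104218793 to 104507849 of mm10, in the order Trim6, Trim34a, Trim5, Trim12a, Trim34b, Trim12c, Trim30b, Trim30c, Trim30a and Trim30d. Of the 10 genes none rose, 8 fell and 2 did not pass, and the median log2 fold change was -0.89. The 8 include Trim30b, which could pass the filter only as a gene lower with fucoidan. Of the 28 TRIM members elsewhere, 4 rose and 8 fell, with a median of -0.23. Among all tested genes 7.67% rose and 19.3% fell, with a median of -0.10. With GC content and transcript length corrected, 4 of the 10 cluster genes were called lower, against 11.9% of all genes in that fit. The median of the 10 was then -0.63. The cluster was named from gene position and family, with its low values already known, so its counts are a description.

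**Figure D3:**
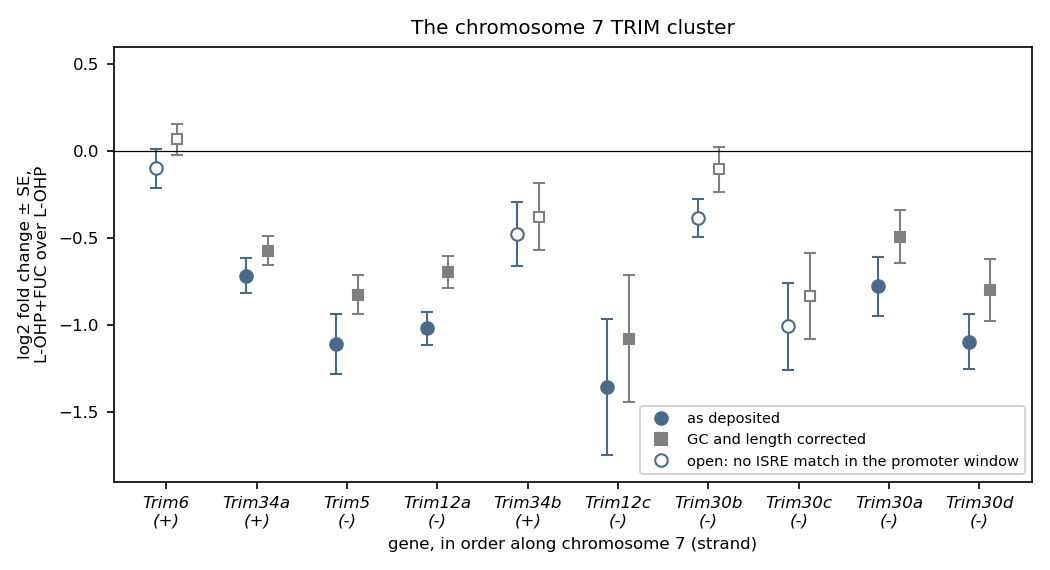
Log2 fold change (± SE) of the 10 cluster genes in chromosomal order, from the deposited FPKM (circles) and with GC content and transcript length corrected (squares). Open symbols mark genes whose promoter window holds no match to the interferon response element. Without correction all 10 values lie below 0, from -0.10 to -1.36, and after correction Trim6 is at 0.07.

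Trim5 had 1.59, 1.92 and 2.97 FPKM with L-OHP+FUC and 5.91, 5.00 and 6.26 FPKM with L-OHP (log2 fold change -1.11, SE 0.17, adjusted p = 0.00890). Trim12a, a mouse paralogue of Trim5, had 4.03, 3.94 and 4.75 FPKM with L-OHP+FUC and 9.12, 9.91 and 9.75 FPKM with L-OHP (log2 fold change -1.02, SE 0.10, adjusted p = 0.00339). In both genes all 3 L-OHP+FUC libraries were below all 3 L-OHP libraries. Trim12c had 2.00, 5.46 and 8.04 FPKM with L-OHP+FUC and 13.0, 16.9 and 10.7 FPKM with L-OHP (log2 fold change -1.36, SE 0.39, adjusted p = 0.0436). It had the lowest log2 fold change of the TRIM members, and L-OHP+FUC replicate 1 was far below its group. Its call was lost without any single library other than L-OHP+FUC replicate 3 (adjusted p = 0.0604 without L-OHP+FUC replicate 1, 0.0922 without replicate 2, and 0.104, 0.0938 and 0.0684 without L-OHP replicates 1, 2 and 3).

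Trim30a, induced by Toll-like receptor signals in mouse macrophages and known to restrain NF-kB by degrading TAB2 and TAB3, had 45.8, 40.1 and 61.7 FPKM with L-OHP+FUC and 91.2, 86.1 and 74.4 FPKM with L-OHP (log2 fold change -0.78, SE 0.17, adjusted p = 0.0194). Its neighbour Trim30d had 19.0, 16.6 and 21.3 FPKM with L-OHP+FUC and 48.0, 44.7 and 33.3 FPKM with L-OHP (log2 fold change -1.10, SE 0.16, adjusted p = 0.00755). In both genes L-OHP replicate 3 was the lowest of its group and L-OHP+FUC replicate 3 the highest of its own, yet neither pair of groups overlapped. Trim30c had 5.21, 4.26 and 7.82 FPKM with L-OHP+FUC and 13.3, 15.5 and 8.84 FPKM with L-OHP (log2 fold change -1.01, SE 0.25, adjusted p = 0.0285). Trim30b, at the edge of the filter, had 0.466, 0.375 and 0.493 FPKM with L-OHP+FUC and 1.01, 0.971 and 0.680 FPKM with L-OHP (log2 fold change -0.38, SE 0.11, adjusted p = 0.0423). Trim30d kept its call without any single library, whereas that of Trim30a was gone without replicate 1 or 2 of L-OHP+FUC or L-OHP replicate 1 (adjusted p = 0.0713, 0.0657 and 0.0662). Trim30c lost it without those 3 libraries or L-OHP replicate 2 (0.0929, 0.0904, 0.0862 and 0.0585), and Trim30b without any single library but L-OHP replicate 3 (0.0716 to 0.134).

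Trim34a, the mouse relative of primate TRIM34, had 13.2, 13.5 and 14.8 FPKM with L-OHP+FUC and 26.1, 21.9 and 22.1 FPKM with L-OHP (log2 fold change -0.72, SE 0.10, adjusted p = 0.00697). Trim34b had 1.10, 0.430 and 0.560 FPKM with L-OHP+FUC and 1.06, 1.20 and 1.80 FPKM with L-OHP, overlapping in 1 library (log2 fold change -0.48, adjusted p = 0.0973). Trim6, which in human cells makes free ubiquitin chains that activate the kinase IKK-epsilon, had 0.408, 0.507 and 0.669 FPKM with L-OHP+FUC and 0.586, 0.533 and 0.783 FPKM with L-OHP (log2 fold change -0.10, adjusted p = 0.551). The groups of Trim6 overlapped as well. Some genes of this cluster are close copies, and reads can be split between them. Of all 50-base stretches in the annotated transcripts of Trim34a, 59.7% also occur in another gene, 39.8% in Trim34b. The share was 56.8% for Trim34b, 36.6% for Trim5, 33.7% for Trim12c and 10.5% for Trim12a, and 7.49% for Trim30d, 5.98% for Trim30a, 1.48% for Trim30b and 0.660% for Trim30c. It was 1.505% for Trim6, mostly with genes outside the cluster. The split of reads within the Trim34 pair and among Trim5 and Trim12c is uncertain, and the sources used here do not say how reads matching several genes were counted.

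Many genes of this family answer to interferon through the interferon-stimulated response element (ISRE), a short promoter sequence. RefSeq promoter windows (250 bases before to 50 bases after an annotated start, GRCm38.p6) were on hand for 29 of the 38 members. A search on both strands for GAAANNGAAA, the core of the ISRE, found it in 8 of the 29, or 27.6%, against 4.11% of 8468 tested genes with a window. Of these 8, 6 lie in the cluster, and Trim21 and Trim26 lie outside it. A match is only a run of letters, and no measurement of binding was made here. Each stretch below gives the match in capitals with 25 bases on either side where the window allows, on the strand of the gene. The capitals TTTCNNTTTC are the same motif read on the opposite strand, and longer capitals in Trim21 and Trim26 are 2 overlapping matches.
Trim5, chr7:104288121-104288180, minus strand: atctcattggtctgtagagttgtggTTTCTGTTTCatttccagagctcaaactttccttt
Trim12a, chr7:104315451-104315510, minus strand: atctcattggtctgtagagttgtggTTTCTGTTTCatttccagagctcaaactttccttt
Trim12c, chr7:104353344-104353403, minus strand: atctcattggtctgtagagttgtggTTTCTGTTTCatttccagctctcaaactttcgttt
Trim30a, chr7:104465195-104465254, minus strand: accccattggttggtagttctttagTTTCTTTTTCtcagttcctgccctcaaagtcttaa
Trim30d, chr7:104507856-104507915, minus strand: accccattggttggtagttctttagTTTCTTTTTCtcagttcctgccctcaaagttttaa
Trim34a, chr7:104244442-104244501, plus strand: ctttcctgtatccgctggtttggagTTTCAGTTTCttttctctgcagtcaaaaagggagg
Trim21, chr7:102565433-102565494, minus strand: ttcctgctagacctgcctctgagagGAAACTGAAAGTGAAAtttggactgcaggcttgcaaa
Trim26, chr17:36836961-36837026, plus strand: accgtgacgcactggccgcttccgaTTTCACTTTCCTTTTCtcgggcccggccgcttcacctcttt

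The promoters fall into families as the genes do. The windows of Trim5 and Trim12a were identical over the 241 bases that they share at their best ungapped shift, and those of Trim30a and Trim30d matched at 93.6% of 295 bases. A window at another annotated start of Trim30a, chr7:104446076-104446375, also held an ISRE match and was identical to that of Trim30d at 51.95% of 256 bases. The Trim12a and Trim12c windows matched at 72.3% of 260 bases. Of the 6 cluster genes with a match all 6 fell, and of the 4 with a window but no match (Trim6, Trim30b, Trim30c and Trim34b) 2 fell. Of all tested genes, 19.3% fell. Trim6, Trim30b and Trim34b averaged 0.581, 0.666 and 1.02 FPKM, where log2(FPKM + 1) understates change. The authors' log2 folds were -0.995, -1.13, -0.954 and -0.263 for Trim30b, Trim30c, Trim34b and Trim6, beside -0.771 and -0.758 for Trim30a and Trim34a. Those of the other 4 with a match were lower than these. The Trim30b window (chr7:104358597-104358896) lies inside the gene, which starts at 104369884. The part of the match was not tested. Outside the cluster neither Trim21 nor Trim26 passed the test. The antioxidant response element core TGACNNNGC, searched on both strands, was found in a window of Trim30b alone, against 17.1% of tested genes. The Trim30a promoter is shown whole as the start of the most abundant member, with the ISRE match in capitals.
Trim30a promoter, chr7:104465144-104465443, minus strand: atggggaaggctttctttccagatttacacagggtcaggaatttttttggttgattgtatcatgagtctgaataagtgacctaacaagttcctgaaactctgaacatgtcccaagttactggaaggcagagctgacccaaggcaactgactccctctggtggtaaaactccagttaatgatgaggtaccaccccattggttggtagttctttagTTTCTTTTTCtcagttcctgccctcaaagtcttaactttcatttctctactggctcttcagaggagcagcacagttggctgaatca

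Of the 8 members of the innate signalling group, all outside the cluster, 2 fell and none rose, with a median log2 fold change of -0.23, a share of calls near the 27.0% of all tested genes. Trim56, a ligase of the cGAS and STING pathway, had 5.00, 5.21 and 6.50 FPKM with L-OHP+FUC and 11.8, 11.6 and 10.9 FPKM with L-OHP (log2 fold change -0.93, SE 0.11, adjusted p = 0.00479). Trim25, which attaches ubiquitin chains to RIG-I, had 44.0, 46.0 and 47.1 FPKM with L-OHP+FUC and 64.5, 66.1 and 58.4 FPKM with L-OHP (log2 fold change -0.45, SE 0.09, adjusted p = 0.0137). In both genes the groups did not overlap. The call of Trim25 did not hold without replicate 1 or 2 of L-OHP+FUC (adjusted p = 0.0555 and 0.0597) or replicate 1 of L-OHP (0.0517), and Trim56 kept it without any single library. Trim65, a ligase of MDA5, stood at 2.57 ± 0.359 and 3.34 ± 0.188 FPKM, and Trim8, which activates the kinase TAK1, at 20.8 ± 1.14 and 24.5 ± 4.47 FPKM in L-OHP+FUC and L-OHP libraries (SD, n = 3; limma adjusted p = 0.0839 and 0.274). In these 2 genes no L-OHP+FUC library reached the lowest L-OHP library. Trim14, an adaptor of mitochondrial antiviral signalling, stood at 10.3 ± 0.464 and 12.5 ± 3.32 FPKM, Trim26, which degrades nuclear IRF3, at 11.8 ± 0.367 and 13.2 ± 1.26 FPKM, and Trim27 at 6.10 ± 0.661 and 5.90 ± 0.215 FPKM (SD, n = 3; limma adjusted p = 0.339, 0.292 and 0.804). Of the 50-base stretches of Trim14, 33.9% occur in other genes, chiefly Nans on the opposite strand.

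Trim21, an antibody receptor of the cytosol that directs antibody-coated viruses to the proteasome, is singled out here after its values were seen. It had 10.3, 10.3 and 11.7 FPKM with L-OHP+FUC and 17.0, 21.7 and 5.38 FPKM with L-OHP (log2 fold change -0.23, SE 0.44, adjusted p = 0.723). The L-OHP+FUC libraries agreed closely, while L-OHP replicate 3 was the lowest of all 6 libraries and its other 2 replicates were the highest. Without L-OHP replicate 3 the log2 fold change was -0.78 and passed (adjusted p = 0.0211), and without L-OHP replicate 2 it was 0.13 (adjusted p = 0.830), the range over the 6 libraries left out being 0.0211 to 0.967. The 8 members with an ISRE match had mean deviations from the 6-library mean of -0.58, -0.46 and -0.17 in L-OHP+FUC replicates 1 to 3 and 0.51, 0.54 and 0.16 in L-OHP replicates 1 to 3. Trim21 is among these 8, so its own low value enters the mean of L-OHP replicate 3. The median deviations of the 8 were 0.51, 0.49 and 0.26 in L-OHP replicates 1 to 3. Mitochondrial transcripts held 8.84% to 9.45% of the summed FPKM in L-OHP+FUC libraries and 7.50%, 5.99% and 9.36% in L-OHP replicates 1 to 3, and the part of this share in the spread of Trim21 was not tested.

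**Figure D4:**
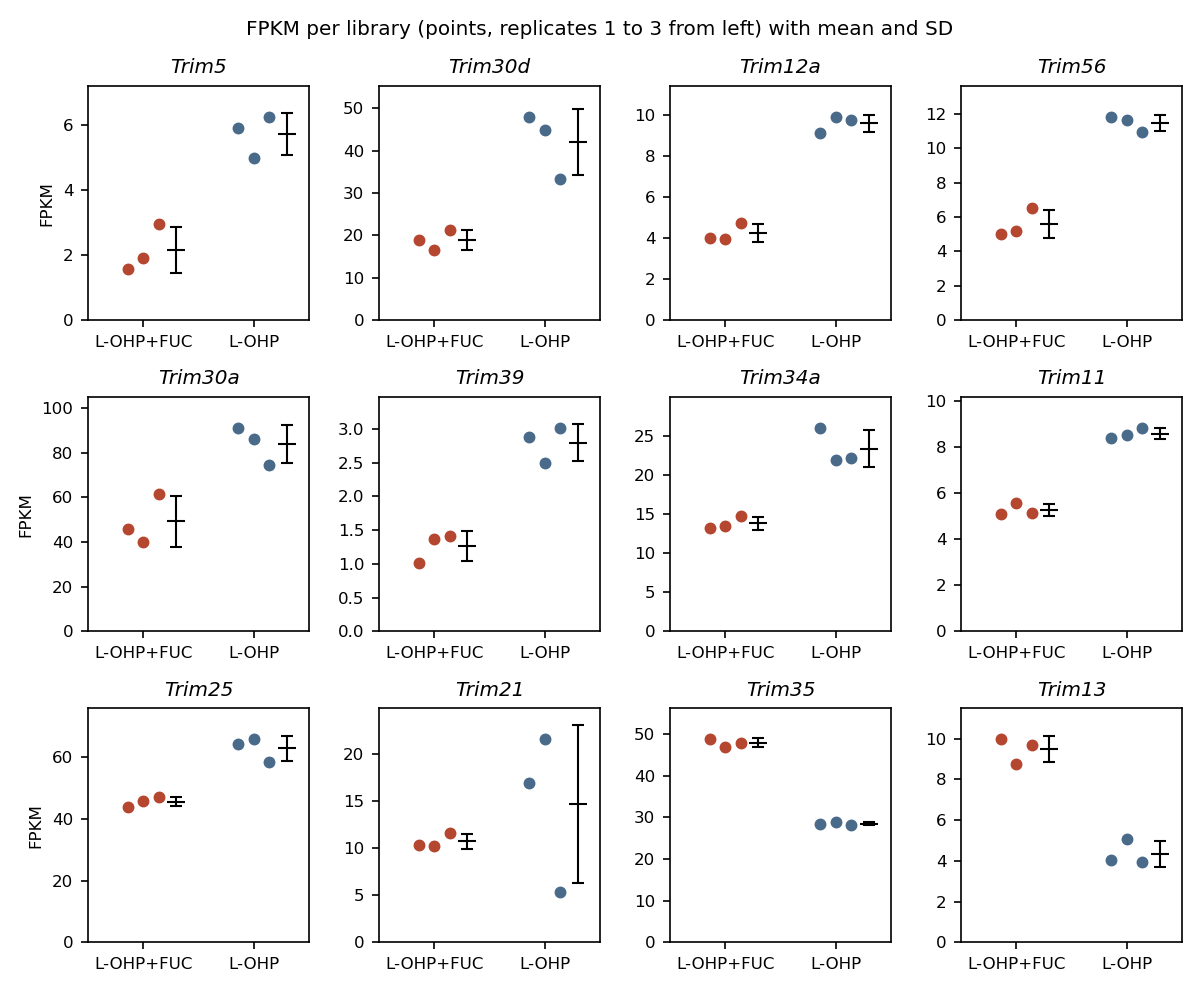
FPKM in every library, with group mean and SD, for the 9 members called in every setting in which they were tested and for Trim30a, Trim25 and Trim21. In Trim21 the 3 L-OHP libraries run from 5.38 to 21.7 FPKM, on both sides of the L-OHP+FUC libraries, and in the other 11 genes the groups do not overlap.

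The TIF1 members carry a PHD finger and a bromodomain, and Trim28 and Trim33 moved in opposite directions. Trim28 (KAP1), the corepressor through which KRAB zinc finger proteins silence endogenous retroviruses, had 28.7, 26.6 and 27.4 FPKM with L-OHP+FUC and 22.3, 19.0 and 19.4 FPKM with L-OHP (log2 fold change 0.43, SE 0.09, adjusted p = 0.0187). Trim33, a ligase and cofactor of the SMAD pathway, had 1.93, 1.97 and 3.04 FPKM with L-OHP+FUC and 4.32, 3.58 and 4.47 FPKM with L-OHP (log2 fold change -0.64, SE 0.15, adjusted p = 0.0255). Trim24, a relative that binds modified histone H3, did not pass at 0.847 ± 0.288 and 1.32 ± 0.105 FPKM in L-OHP+FUC and L-OHP libraries (SD, n = 3; limma adjusted p = 0.0971), although its groups did not overlap. The ratio of Trim28 to Trim33 in FPKM averaged 12.4 ± 3.06 with L-OHP+FUC and 4.94 ± 0.520 with L-OHP (SD, n = 3). Neither call was firm, and neither passed with GC content and transcript length corrected (limma adjusted p = 0.124 for Trim28 and 0.126 for Trim33). For Trim28 the call did not hold without replicate 1 or 2 of L-OHP+FUC (adjusted p = 0.0698 and 0.0635). For Trim33 it did not hold without replicate 1 or 2 of L-OHP+FUC (0.0867 and 0.0897) or L-OHP replicate 1 or 3 (0.0810 and 0.0688). Trim28 also overlaps Zbtb45 on the opposite strand.

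Trim13 and Trim35 had the largest rises of the 38 members. Trim13, which takes part in the clearance of misfolded proteins at the endoplasmic reticulum, had 10.0, 8.76 and 9.71 FPKM with L-OHP+FUC and 4.05, 5.06 and 3.93 FPKM with L-OHP (log2 fold change 0.98, SE 0.11, adjusted p = 0.00437). Trim35, first described in blood cell precursors, had 48.9, 46.8 and 48.0 FPKM with L-OHP+FUC and 28.3, 28.9 and 28.2 FPKM with L-OHP (log2 fold change 0.73, SE 0.07, adjusted p = 0.00378). The replicates of Trim35 lay within a few FPKM of each other in both groups, far less than the distance between the groups, and both genes kept their calls without any single library. Both lie on chromosome 14, Trim13 at 61598247 to 61605946 and Trim35 at 66297031 to 66311424 of mm10. Of the 50-base stretches of Trim13, 14.2% also occur in the gene Gm9359, and Trim13 overlaps Dleu2 on the opposite strand. Trim47, a SPRY member, had 3.74, 3.19 and 4.07 FPKM with L-OHP+FUC and 2.07, 2.22 and 2.83 FPKM with L-OHP (log2 fold change 0.47, SE 0.12, adjusted p = 0.0343). It overlaps Trim65 on the same strand over 5365 bases, and its call was lost without any single library other than L-OHP replicate 3 (adjusted p = 0.0620 to 0.107).

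Among the remaining members, 5 fell. Trim39, a ligase gene inside the major histocompatibility complex, had 1.02, 1.37 and 1.41 FPKM with L-OHP+FUC and 2.88, 2.49 and 3.02 FPKM with L-OHP (log2 fold change -0.75, SE 0.11, adjusted p = 0.00844). Trim11, known for clearing misfolded proteins, had 5.09, 5.58 and 5.13 FPKM with L-OHP+FUC and 8.37, 8.50 and 8.84 FPKM with L-OHP (log2 fold change -0.61, SE 0.08, adjusted p = 0.00639). Both were separated by more than the whole range of either group, and both kept their calls without any single library. Trim36, a member with the microtubule-binding COS box, had 1.25, 1.45 and 1.55 FPKM with L-OHP+FUC and 2.76, 2.26 and 2.49 FPKM with L-OHP (log2 fold change -0.54, SE 0.10, adjusted p = 0.0138). Trim41, a SPRY member, had 15.06, 13.99 and 13.79 FPKM with L-OHP+FUC and 18.4, 21.7 and 17.9 FPKM with L-OHP (log2 fold change -0.41, SE 0.10, adjusted p = 0.0274). Rack1, on the opposite strand, overlaps it by 31 bases and averaged 81.8 FPKM over the 6 libraries. Trim3, with the NHL repeats that bind RNA or protein in this subfamily, had 8.01, 7.00 and 7.79 FPKM with L-OHP+FUC and 9.28, 10.6 and 9.22 FPKM with L-OHP (log2 fold change -0.31, SE 0.09, adjusted p = 0.0499). Trim3 lost its call without any single library (adjusted p = 0.0771 to 0.170). For Trim36 it was gone without replicate 1 or 2 of L-OHP+FUC or L-OHP replicate 1 (0.0517, 0.0530 and 0.0521), and Trim41 without any L-OHP+FUC replicate or L-OHP replicate 1 (0.0651 to 0.0974).

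Another 9 members outside the cluster and the innate group did not pass besides Trim24. Trim44, which lacks a RING, came closest, at 15.1 ± 1.49 and 18.8 ± 1.02 FPKM (log2 fold change -0.31), followed by Trim23, a ligase with an ARF-type GTPase domain, at 2.01 ± 0.605 and 3.12 ± 0.454 FPKM (log2 fold change -0.47), both given for L-OHP+FUC first and then L-OHP (SD, n = 3; limma adjusted p = 0.0587 and 0.0734). Both had groups that did not overlap, as did Trim68 at 0.748 ± 0.0774 FPKM with L-OHP+FUC and 1.20 ± 0.389 FPKM with L-OHP (limma adjusted p = 0.141). The groups of Trim16, which lacks a RING and acts on damaged endosomes and lysosomes, overlapped (2.02 ± 0.331 FPKM with L-OHP+FUC and 2.02 ± 0.753 FPKM with L-OHP). The same held for Trim32, Trim37 of the centrosome, Trim45, Trim46 and Trim62, whose log2 fold changes lay between -0.09 and 0.07.

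The other 30 genes of the name pattern were below the filter. Of the 30, 15 were listed at 0 in all 6 libraries, among them Trim31, Trim50, Trim63 and Trim72, and 2 reached 0.5 FPKM in any library. These 2 were the genes just outside the filter. Trim59 had 0.338, 0.323 and 0.436 FPKM with L-OHP+FUC and 0.427, 0.596 and 0.589 FPKM with L-OHP, and Trim29 had 0.448, 0.363 and 0.691 FPKM with L-OHP+FUC and 0.338, 0.492 and 0.215 FPKM with L-OHP. Just inside it, Trim45 had 0.580, 0.484 and 0.575 FPKM with L-OHP+FUC and 0.607, 0.513 and 0.602 FPKM with L-OHP. Trim38, an interferon-induced regulator of innate signalling, had 0.0570 and 0.0208 FPKM in L-OHP replicates 1 and 2 and was listed at 0 in the other 4 libraries.

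The 16 members that fell had a median GC content of 43.8% in their longest transcript and the 4 that rose 56.1%, with 49.5% over all tested genes. Once each library was corrected for GC content and for transcript length, 2 members were called higher and 11 lower, against 11.5% and 11.9% of all genes in that fit (23.4% in all). The 2 higher were Trim13 (log2 fold change 1.21) and Trim35 (0.70), and the changes of Trim28 (0.26, adjusted p = 0.124) and Trim47 (0.28, adjusted p = 0.262) no longer passed. In the cluster, Trim5 (log2 fold change -0.83), Trim12a (-0.70), Trim30d (-0.80) and Trim34a (-0.57) kept their calls. Trim12c (-1.08, adjusted p = 0.0749), Trim30c (-0.83, adjusted p = 0.0533), Trim30a (-0.49, adjusted p = 0.0585) and Trim30b (-0.10, adjusted p = 0.591) did not. Outside the cluster Trim33 went to -0.25 (adjusted p = 0.126), while Trim11 (-0.74), Trim41 (-0.55) and Trim3 (-0.46) had larger changes than before.

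**Figure D5:**
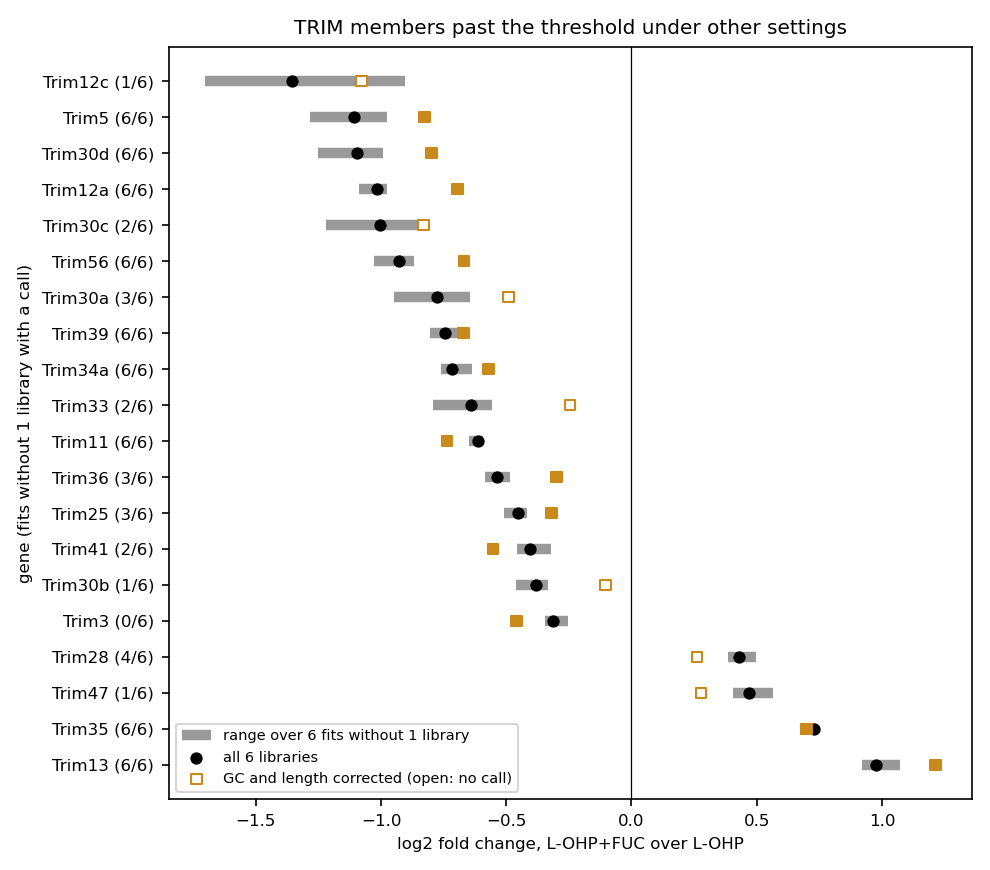
Log2 fold change of the 20 members past the threshold with all 6 libraries (black), its range over the 6 fits that leave out 1 library (grey) and its value after the GC and length correction (yellow). Members with 6 of 6 kept their call without any single library, 7 of them lower and 2 higher.

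In the authors' deposited table, 4 members had a q-value under 0.05 as higher and 13 as lower, against 9.93% and 12.9% of the tested genes (22.9% in all). These 17 were all among the 20 called by limma, with the same sign. The 3 called by limma alone were Trim3, Trim25 and Trim41, whose q-values in the authors' deposited table were 0.382, 0.110 and 0.201. The mark of significance in the authors' deposited table, a narrower call than the q-value, was set on Trim13 as higher and on Trim5, Trim12a, Trim12c, Trim30c, Trim30d, Trim39 and Trim56 as lower, against 1.0% and 8.27% of the tested genes. Every marked member had a larger log2 fold in size than every unmarked one, the closest being Trim56 (-1.04, marked) and Trim30b (-0.995, unmarked). Trim35 was unmarked at a log2 fold of 0.750, with an authors' q-value of 1.64e-06.

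The partners with which TRIM ligases work were read from 6 lists with 62 tested genes, of which 13 fell, none rose and 49 did not pass. This share of lower genes was near the 19.3% of all tested genes. Of 13 ubiquitin-conjugating enzymes that RING ligases use, none passed, and Ube2n, which builds signalling chains, stood at 10.1 ± 0.263 and 10.9 ± 1.77 FPKM in L-OHP+FUC and L-OHP libraries (SD, n = 3; limma adjusted p = 0.586). In the list of RIG-I, MAVS and STING signalling, 4 of 17 genes fell, a share near the 19.3% of all tested genes. They were Ifih1, the RNA sensor MDA5 (11.5 ± 3.36 FPKM with L-OHP+FUC and 26.1 ± 6.40 FPKM with L-OHP), the kinase Tbk1 (17.2 ± 3.78 and 28.1 ± 2.29 FPKM in the same order), the TAK1 partner Tab2 (19.5 ± 2.90 and 26.8 ± 0.154 FPKM) and Zc3hav1, the antiviral protein ZAP that works with TRIM25 (34.9 ± 2.67 and 46.7 ± 5.83 FPKM; SD, n = 3; limma adjusted p = 0.0185, 0.0203, 0.0289 and 0.0411). The sensor gene Ddx58, the RIG-I that TRIM25 modifies, stood at 32.9 ± 4.61 and 43.1 ± 6.31 FPKM (limma adjusted p = 0.101). In neither of the next 2 lists was the share of lower genes far from 19.3%. Of 12 interferon receptor and JAK-STAT genes 2 fell, Stat2 (log2 fold change -1.16, adjusted p = 0.0111) and the receptor chain Ifngr2 (-0.26, adjusted p = 0.0465), while Irf9 did not pass (-0.09, adjusted p = 0.724). Of 5 genes of ISG15 conjugation 1 fell, the ligase Herc6 (log2 fold change -1.18, adjusted p = 0.0125). Among these 7 genes, Stat2 and Herc6 kept their calls without any single library, and the other 5 lost theirs without at least 1 (highest adjusted p = 0.0670 to 0.170). With GC content and length corrected, Tab2 (adjusted p = 0.0518), Zc3hav1 (0.210) and Ifngr2 (0.0841) did not pass, and the other 4 did.

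Trim28 itself rose, although it did not pass with GC content and length corrected (limma adjusted p = 0.124). In the list of the TRIM28 silencing complex, which also holds a gene of the HUSH complex, 6 of 11 genes fell, beside 19.3% of all tested genes. They were Mphosph8 of the HUSH complex (2.10 ± 0.924 FPKM with L-OHP+FUC and 6.67 ± 1.60 FPKM with L-OHP), the heterochromatin protein Cbx5 (1.47 ± 0.222 and 2.63 ± 0.187 FPKM), the histone methyltransferase Setdb1 (5.04 ± 0.522 and 7.36 ± 1.03 FPKM), its cofactor Atf7ip (1.35 ± 0.0900 and 2.06 ± 0.138 FPKM), and Chd3 and Morc2a (SD, n = 3; limma adjusted p = 0.0137, 0.0131, 0.0337, 0.0246, 0.0367 and 0.0395). Of these 6, Mphosph8 alone kept a call when GC content and length were corrected (adjusted p = 0.0130), where 11.9% of all genes were lower, and the other 5 had adjusted p = 0.0688 to 0.383. Mphosph8 was also the only one of the 6 to keep its call without any single library (highest adjusted p = 0.0498), against 0.0564 to 0.123 for the other 5. Among TRIM and related proteins with other names none of 4 tested genes passed. Pml, whose protein forms nuclear bodies, stood at 11.7 ± 0.582 and 11.4 ± 0.975 FPKM, and Mefv, the inflammasome sensor pyrin, at 27.0 ± 2.33 and 25.4 ± 0.290 FPKM in L-OHP+FUC and L-OHP libraries (SD, n = 3; limma adjusted p = 0.829 and 0.509). The interferon-inducible Pml thus differed by less than the spread between its replicates.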

How the data were processed

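Ribosomal RNA was removed from total RNA and random-primed libraries were sequenced, per the labels' protocols. HISAT2, StringTie, DESeq2, limma, bcl2fastq 2.0 and mm10 are named in the submitters' processing notes, without roles, and the sources used here give neither strand use nor annotation. Per the file headers, the authors deposited FPKM for each gene in each library; their stand-in for 0, the value 0.0001, was read as 0. The fold column held the authors' ratio of group mean FPKM, tested on all 55401 genes. The log2 column is the authors' log2 of that fold, per the file headers. The deposited p-value and q-value of each gene are the authors', per the file headers, from a tool that no source used here names.

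Only 24.2% to 34.3% of low values came out as whole reads (within 0.03 reads), so no counts were recovered and no count test was run. Precision beyond the replicates is not known. Genes at 0.5 FPKM or more in 3 or more of 6 libraries (12084) were tested two-sided with limma 3.58.1 in R 4.3.3, with an intensity trend and no term but group, the values being log2(FPKM + 1). Fold changes are L-OHP+FUC over L-OHP on that scale, which understates low genes. The code was tested on simulated data. No pair of libraries shared an identical value above 0 among tested genes. GENCODE M21 (GRCm38, equal to mm10) gave coordinates and GC content, with 99.5% of gene IDs and all 38 members matched. Promoters came from RefSeq (GRCm38.p6) by symbol. Partner lists without tests of their own were described by counts. The GC and length correction subtracted a loess trend of each library's deviations.

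The members, gene groups and lists were chosen with earlier results of these data known. Named with values in every library were members past the threshold, the most abundant members and the paralogue groups; other members appear by means or ranges, and up to 4 partner genes per list by smallest p. Genes named beyond that rule were chosen after their values were seen. One searched motif is not reported here. The alternatives are given below.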

Additional observations from a re-analysis of the deposited data

How the results depend on the processing

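Of 18 alternative settings, 16 other than the 2 thresholds kept the threshold of 0.05. Under these 16, in every setting in which they were tested, 7 members (Trim5, Trim11, Trim12a, Trim30d, Trim34a, Trim39 and Trim56) were called lower and 2 (Trim13 and Trim35) higher. All other calls among the members were lost under at least 1 setting. The share of all tested genes called in every setting is not given here, so these counts are a description. Higher and lower members numbered 3 and 10 without a filter on low genes (561 and 1520 of all genes), 2 and 11 after the GC and length correction, 2 and 7 at a threshold of 0.01, and 2 to 4 and 7 to 16 when 1 library was left out. Lower calls in the partner lists numbered 5 without a filter, 7 after median ratio rescaling (1 higher), 7 after the GC and length correction, 0 at a threshold of 0.01 (limma, where 165 genes rose and 472 fell in all) and 3 to 12 without 1 library (0 to 1 higher).

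All genes called higher and lower numbered 1581 and 1680 after median ratio rescaling, 1565 and 1359 after quantile normalization, 1390 and 1437 after the GC and length correction and 754 and 966 at a mean of at least 5 FPKM. At a threshold of 0.1, 1436 were higher. Without 1 library they numbered 266 to 1121 higher and 835 to 2256 lower. The median log2 fold change of all genes was -0.13 with a pseudocount of 0.1, -0.028 without a filter, -0.0067 at a mean of 5 FPKM, -0.010 after median ratio rescaling, 0.034 after quantile normalization, 0.0091 after the GC and length correction and -0.070 for protein-coding genes. That of the TRIM members was -0.40 with a pseudocount of 0.1, -0.23 after rescaling, -0.18 after quantile normalization and -0.25 after the correction, so that it stayed below that of all genes.

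Whether replicate numbers pair the libraries cannot be settled with 3 libraries per group. Deviations from the group means correlated at -0.04, -0.07 and 0.08 for same-numbered libraries, and from -0.15 to 0.16 for differently numbered ones. With the replicate block, 4 members were higher and 12 lower, 4 partner genes were lower, and 554 genes in all were higher and 1762 lower. With the block and the GC and length correction, 2 members were higher and 9 lower, 1 partner gene was higher and 2 lower, and 656 genes in all were higher and 809 lower; the median log2 fold changes were as with the correction alone (-0.25 and 0.0091).

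Sign changes touched only members without a call. After median ratio rescaling and quantile normalization the log2 fold changes were 0.011 and 0.069 for Trim32, 0.020 and 0.19 for Trim45, and 0.057 and 0.22 for Trim46. Trim6 went to 0.12 after quantile normalization and to 0.070 after the GC and length correction with or without the block, where Trim62 went to -0.068. With 1 library left out, Trim16 lay between -0.172 and 0.196, Trim21 between -0.78 and 0.13, Trim27 between -0.0053 and 0.117, Trim37 between -0.065 and 0.0896, Trim45 between -0.054 and 0.0038, Trim46 between -0.081 and 0.074, and Trim62 between -0.046 and 0.140. The cause of these shifts was not tested. What depth limits was not measured, since no counts were recovered.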
